A study of Homo sapiens with 15 samples.

Results

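HOX genes encode homeodomain transcription factors that give cells a position along the body axis. The genes analysed here were every row of the deposited table named as a member of the HOXA, HOXB, HOXC or HOXD cluster, and 32 of its 15790 genes met that rule. They comprise 10 HOXA, 8 HOXB, 7 HOXC and 7 HOXD genes, of 39 HOX genes that RefSeq lists. HOXA13, HOXB1, HOXB13, HOXC12, HOXC13, HOXD12 and HOXD13 were not analysed here. The question taken here was how the HOX pattern of kidney epithelium differs from that of dermal fibroblasts, and whether it moves with the membrane or with co-culture.

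RNA was sequenced from 15 libraries, 3 in each of 5 groups. RPTEC/TERT1, an immortalized human line of renal proximal tubular epithelium, was grown alone on LN/FN-silk, a membrane of recombinant spider silk, or alone on LN/PC membranes. On each membrane it was also grown in co-culture with fHDF/TERT166, which are human dermal fibroblasts, likewise immortalized. The remaining group was fHDF/TERT166 by itself. The seeding density was 140000 per cm2 for RPTEC/TERT1 and 14000 per cm2 for fHDF/TERT166, and all cultures were taken 14 days after seeding. Each cell type is represented by 1 line, so a difference between them is a difference between these lines. Silk membranes were scraped and LN/PC membranes were cut out, so membrane and way of harvest cannot be told apart. Several membranes were pooled in a sample. The fibroblasts were scraped from the well bottom, and the protocol calls them basolateral while the titles call them monocultures. Nothing in the labels states whether the 3 replicates of a group came from independent cultures. The p-values therefore measure only how far these samples spread, and that spread may be technical.

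In the embryo, HOX genes are switched on in the order in which they lie in each cluster, and low numbers mark the head end while high numbers mark the trunk end and the distal limb. Genes with the same number in different clusters, called paralogues, arose by duplication and often act together. Adult cells keep much of this code, and skin fibroblasts are known to differ in their HOX genes by body site. In the kidney, the paralogues numbered 11 are required for the metanephric mesenchyme to induce the ureteric bud, with retinoic acid, PBX and MEIS proteins and Polycomb complexes among the regulators and partners of HOX genes. In GENCODE v29 (GRCh38), the measured HOXA genes lie on chromosome 7. The measured HOXB genes lie on chromosome 17 from 48540894 to 48633572, and the HOXC genes on chromosome 12 from 53973126 to 54056030. The HOXD genes lie on chromosome 2 from 176104216 to 176190907.

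3 HOX genes had no signal in any fibroblast library, and stretches before their starts are shown next to that of HOXA10, which was detected in every library of both cell types. The sequences come from RefSeq's promoter table (GRCh38.p14) and were trimmed to the bases that lie outside every GENCODE v29 exon. The HOXD11, HOXD10 and HOXA10 stretches lie inside the spans that GENCODE gives these genes, so they precede an internal start. The HOXA10 stretch also lies inside HOXA9. Capitals mark CpG pairs, the sites at which promoter DNA can be methylated. The HOXD11 stretch is chr2:176107030-176107279 on the plus strand and the HOXD10 stretch is chr2:176116528-176116578 on the plus strand. The HOXA2 stretch is chr7:27102812-27102933 on the minus strand and the HOXA10 stretch is chr7:27174321-27174570 on the minus strand.
HOXD11: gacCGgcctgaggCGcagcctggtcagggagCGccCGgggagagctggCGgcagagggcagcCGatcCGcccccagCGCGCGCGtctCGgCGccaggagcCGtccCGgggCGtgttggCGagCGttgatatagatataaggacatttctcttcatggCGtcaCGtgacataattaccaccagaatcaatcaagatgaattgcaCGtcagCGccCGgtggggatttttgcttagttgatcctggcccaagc
HOXD10: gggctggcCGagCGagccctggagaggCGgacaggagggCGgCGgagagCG
HOXA2: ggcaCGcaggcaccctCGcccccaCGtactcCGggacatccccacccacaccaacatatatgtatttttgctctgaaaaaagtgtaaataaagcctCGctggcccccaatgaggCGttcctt
HOXA10: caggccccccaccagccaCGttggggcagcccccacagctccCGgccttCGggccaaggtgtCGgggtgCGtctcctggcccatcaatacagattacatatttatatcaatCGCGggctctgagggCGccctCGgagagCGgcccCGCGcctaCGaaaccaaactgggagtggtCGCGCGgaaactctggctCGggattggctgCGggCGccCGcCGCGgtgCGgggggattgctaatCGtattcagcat

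The HOXD11 stretch holds 23 CpG pairs in 250 bases and the HOXA10 stretch 24 in 250. These stretches, of a gene at 0 in fibroblasts and a gene present in both cell types, thus had close counts. Another HOXA10 window, nearer the start of the GENCODE gene, holds 19 and lies wholly within exons, so it was not printed. HOXD10 has 6 in 51 bases and HOXA2 has 6 in 122. Across whole windows of 250 bases before a start, the 16 members with an entry (23 windows) had a median of 19 CpG pairs, against 11 over all 35116 promoters in the table. Of these windows, 15 were HOXA, 6 HOXD, 2 HOXC and 0 HOXB, so they do not describe all clusters. Several of the HOXA windows belong to HOXA3, and HOXC4 and HOXC5 share the same stretch. The letters TATAAA, the core of the TATA box, were found on either strand in 4 of the 23 windows (17.4%) and in 10.7% of all promoters. All 4 were HOXA windows. TGATTNAT, the form of a site bound jointly by PBX and HOX proteins, was found on either strand in 2 windows (8.7%), those of HOXA2 and HOXD11, and in 2.48% of all promoters. The match of HOXD11 lies in the printed stretch. A match is a run of letters and not a measured binding site.

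The labelled cell types were checked against markers. All 14 fibroblast markers were higher in the fibroblasts, with summed normalized counts of 5.5603e+05 to 6.3022e+05 per library against 1040.6 to 1787.6 in the epithelial monocultures. Of 15 measured tubular markers, 12 were lower in the fibroblasts, where CDH1, KRT18, FXYD2 and CDH16 were at 0 in all libraries. CUBN, ANPEP and AQP1 were higher in the fibroblasts, and AQP1, a water channel of the proximal tubule, stood at 10.7 and 10.3 in the epithelial monocultures on silk and LN/PC against 6709 in the fibroblasts. Library totals ran from 9.08 to 12.7 in units of 1e6 normalized counts, or about 8.45 to 14.1 in units of 1e6 reads. Library 2 of the LN/PC monocultures stood apart for HOX genes: it was the highest of its group for 30 of the 32, and its summed HOX level was 15540 normalized counts against 10360 and 10240 in the other libraries. Results that rest on it are given with and without it.

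Kidney epithelium and dermal fibroblasts carried different HOX patterns. HOXA, HOXB and HOXD genes were mostly lower in the fibroblasts and HOXC genes were mostly higher. At an adjusted p under 0.05 (limma on log2 of the normalized count + 1, Benjamini-Hochberg over 14502 genes), 24 of 32 members were lower and 6 were higher. Over all genes tested, 30.3% were lower and 28% were higher. The median log2 difference, fibroblasts minus epithelium, was -2.98 over the members and -0.02 over all genes, or -3.08 and -0.13 with upper-quartile scaling. By cluster the median was -3.49 for HOXA, -2.74 for HOXB, 1.29 for HOXC and -5.70 for HOXD, or -5.48 for HOXD with the genes at 0 set at their bounds. The libraries of the cell types did not overlap for 30 of 32 members, and over all genes 25.4% did not overlap and were lower while 24.7% did not overlap and were higher. All 32 members passed the filter of at least 10 normalized counts in at least 3 libraries. HOXC5 passed with 4 of 9 libraries, 3 of them fibroblast libraries, so its call is no support for the HOXC pattern. HOXA2, HOXA6, HOXD1, HOXD4, HOXD10 and HOXD11 passed through epithelial libraries alone. Their calls are likewise no support for the pattern of their clusters. All of these genes are included in the counts and medians above.

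**Figure D1:**
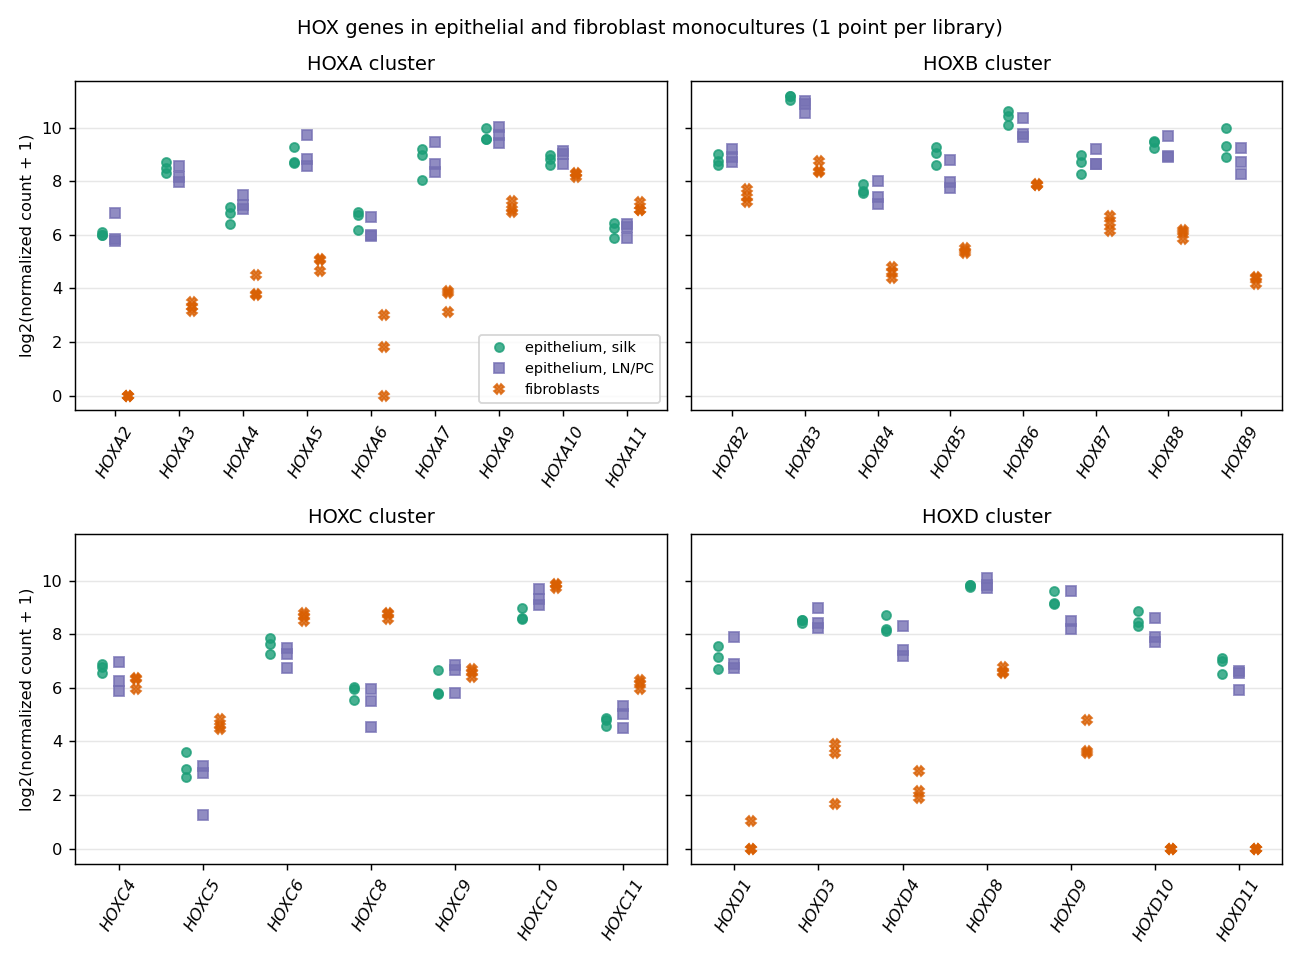
Level of 31 HOX genes in the epithelial monocultures on silk (circles) and on LN/PC (squares) and in the fibroblasts (crosses), 1 point per library, as log2(normalized count + 1); genes in a panel run in order of their number. Fibroblast points lie below the epithelial ones throughout the HOXB and HOXD panels, HOXA11 is the HOXA gene where they lie above, and most HOXC genes have them above.

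By median the HOXD genes showed the widest gap, but HOXD1, HOXD4, HOXD10 and HOXD11 passed the filter through epithelial libraries alone. The median is therefore no support for ranking HOXD against the other clusters. HOXD10, a gene of the lumbar region and the limb, ranged from 211 to 468 with a median of 333 over the 6 epithelial monoculture libraries and was at 0 in all 3 fibroblast libraries. With a floor of 3 reads per library, it was at least 105-fold lower in the fibroblasts. HOXD11, a paralogue that acts in kidney induction and in the forearm, ranged from 60 to 137 with a median of 96.1 in the epithelium and was also at 0 in every fibroblast library, at least 32.5-fold lower. HOXD1, known for patterning of pain-sensing neurons, ranged from 103 to 236 with a median of 129 and stood at 1.06, 0 and 0 in the fibroblasts. Its only fibroblast signal was about 1 read, which put it 455-fold lower with an exact 95% interval of 81.4 to 17981 that covers counting error only. So these 3 genes were present in every epithelial library and at or near 0 in the fibroblasts.

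The other HOXD genes were low but detected in the fibroblasts. HOXD3, a gene of the neck region, ranged from 300.3 to 501 with a median of 357 in the epithelium against 2.17, 13.9 and 10.9 in the fibroblasts, a log2 difference of -5.48 ± 0.42 (SE). HOXD4, whose hindbrain expression depends on a retinoic acid enhancer, ranged from 147 to 428 with a median of 288 against 6.48, 3.44 and 2.66, a log2 difference of -5.70 ± 0.32. HOXD9, a gene of the limb and lumbar region, ranged from 293 to 794 with a median of 568 against 26.7, 11.6 and 10.7, a log2 difference of -5.04 ± 0.35. HOXD8, from the middle of the cluster, was the HOXD gene with the most signal in the fibroblasts. It stood at 92.8, 108 and 94.8 there and ranged from 840.2 to 1116 with a median of 914 in the epithelium, 9.43-fold higher, with a log2 difference of -3.22 ± 0.13 (SE; adjusted p = 1.39e-09). No HOXD gene had a fibroblast library as high as the lowest epithelial one.

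Within HOXA, the gap narrowed from the middle of the cluster to its end. HOXA2, which sets the identity of the second pharyngeal arch, ranged from 54.1 to 112 with a median of 62.6 in the epithelium and was at 0 in all fibroblast libraries, at least 22.2-fold lower. HOXA3, needed for the thymus and parathyroid, ranged from 250.04 to 419.6 with a median of 340.2 against 8.92, 7.82 and 10.4, a log2 difference of -5.05 ± 0.21 (SE; adjusted p = 1.77e-09). HOXA4 ranged from 83.6 to 177 with a median of 128 against 12.5, 21.7 and 13. Both had every fibroblast library under every epithelial one. HOXA5, a regulator of lung development, ranged from 378 to 857 with a median of 438 against 32.7, 33 and 24.2, and HOXA7, known in keratinocyte differentiation, ranged from 262 to 705 with a median of 452 against 13.1, 14 and 7.72. Their log2 differences were -4.03 ± 0.26 and -5.16 ± 0.33 (SE). HOXA6 lies between them and stood at 0, 7.02 and 2.55 in the fibroblasts, with a log2 difference of -4.79 ± 0.53.

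HOXA9, a gene of blood progenitors and of leukaemia, ranged from 684 to 1045 with a median of 813 in the epithelium against 125, 151 and 115, 6.56-fold lower in the fibroblasts with a log2 difference of -2.70 ± 0.17 (SE; adjusted p = 6.25e-08). HOXA10, which patterns the uterus, ranged from 388 to 564 with a median of 478 against 314, 310.0 and 283. That is a log2 difference of -0.63 ± 0.14 (SE; adjusted p = 0.00288), small beside those of its neighbours but without overlap between the cell types. HOXA11, the next gene and a factor of the metanephric kidney, turned the other way. It ranged from 57.4 to 87 with a median of 76.5 in the epithelium and reached 150.5, 121 and 120.3 in the fibroblasts, with a log2 difference of 0.84 ± 0.22 (SE; adjusted p = 0.00664).

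All 8 HOXB genes were lower in the fibroblasts and none was lost. HOXB3, a hindbrain and pharyngeal factor, ranged from 1499.9 to 2333 with a median of 2069.6 in the epithelium against 323, 337 and 435, 5.57-fold lower with a log2 difference of -2.47 ± 0.14 (SE; adjusted p = 2.55e-08). HOXB6 ranged from 808 to 1567 with a median of 1207 against 230.4, 235 and 232, and HOXB7, whose promoter is active in the ureteric bud, ranged from 309.7 to 598 with a median of 414 against 102, 69.8 and 86.1. HOXB2, which acts in facial motor neurons, had the smallest HOXB difference, from 387 to 588 (median 459) against 209, 151 and 169. The log2 differences of HOXB2, HOXB6 and HOXB7 were -1.41 ± 0.16, -2.29 ± 0.17 and -2.33 ± 0.21 (SE).

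HOXB4, known for the expansion of blood stem cells, ranged from 141 to 255 with a median of 195 against 27.1, 23.4 and 20.1. HOXB5, a gene of the enteric neural crest, ranged from 213 to 624 with a median of 418 against 40.8, 39.1 and 44.1. HOXB8, a gene of myeloid progenitors, ranged from 475 to 823 with a median of 661 against 67.8, 56.7 and 71. The 3 genes shared a similar gap, with log2 differences of -3.01 ± 0.23, -3.18 ± 0.24 and -3.25 ± 0.19. HOXB9, a gene of the thoracic skeleton, had the widest gap of the cluster. It ranged from 306 to 1017 with a median of 545 against 20.6, 19.9 and 16.8, 30.3-fold lower in the fibroblasts with a log2 difference of -4.76 ± 0.26 (SE; adjusted p = 2.4e-08).

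HOXC was the cluster in which fibroblasts led. HOXC8, a gene of the lower thoracic and brachial region, stood at 446, 438 and 384 in the fibroblasts and ranged from 22.3 to 65.2 with a median of 53.8 in the epithelium. It was 8.42-fold higher, with a log2 difference of 3.13 ± 0.29 (SE; adjusted p = 2.27e-06), the largest of the members that were higher. HOXC6, a gene of the thoracic region and the mammary gland, reached 450.5, 363 and 408 against an epithelial range from 106 to 231 with a median of 167, a log2 difference of 1.29 ± 0.20 (SE; adjusted p = 0.000192). HOXC10, a lumbar and hindlimb gene, reached 843, 921 and 952 against a range from 383 to 838 with a median of 528, a log2 difference of 0.77 ± 0.16 (SE; adjusted p = 0.00129). The highest epithelial library for HOXC10, library 2 of the LN/PC monocultures, came within a few counts of the lowest fibroblast one. Against the LN/PC monocultures alone, HOXC10 differed by 0.45 with an adjusted p of 0.0548.

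HOXC11, a lumbosacral gene, was lower in abundance and also higher in the fibroblasts, at 77.6, 60.9 and 71.8 against 21.7 to 38.9, a log2 difference of 1.30 ± 0.25 (SE). HOXC5 stood at 21.4, 27.3 and 22.8 against 1.37 to 11.1, near the filter, with a log2 difference of 1.90 ± 0.41. HOXC4 and HOXC9 were the members that missed the threshold and whose libraries overlapped. HOXC4 stood at 79.1, 81.3 and 60.7 in the fibroblasts and from 58.2 to 125 in the epithelium, a log2 difference of -0.35 ± 0.26 (SE; adjusted p = 0.268). HOXC9, a gene of thoracic motor neurons, stood at 105, 96.2 and 84.4 and from 53.5 to 114, a log2 difference of 0.32 ± 0.29 (SE; adjusted p = 0.373).

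**Figure D2:**
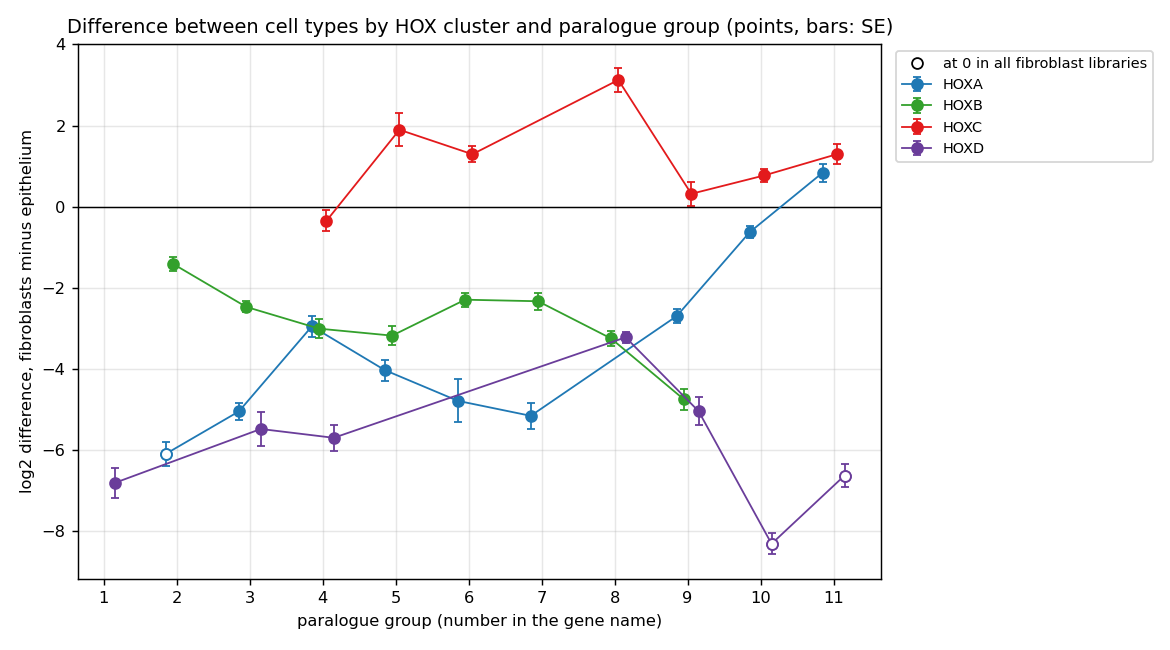
Log2 difference between fibroblasts and epithelial monocultures for 31 HOX genes (y axis) by its number, the paralogue group (x axis), with 1 line per cluster and bars for the standard error; open circles mark genes at 0 in all fibroblast libraries, whose plotted values are fitted and not bounds. From group 5 to group 11 the HOXC line stays above 0, from 0.32 for HOXC9 to 3.13 for HOXC8, while the HOXD line reaches its lowest point at HOXD10. HOXC5 passed the filter through the fibroblast libraries.

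Genes that share a number moved alike in some groups and differed between clusters in others. In groups 2, 3 and 7 all measured paralogues were lower in the fibroblasts. In group 4 HOXA4, HOXB4 and HOXD4 were lower and HOXC4 missed the threshold at a negative difference. In groups 5 and 6 the HOXA and HOXB genes were lower and HOXC6 was higher. HOXC5 was higher too. The filter limit given above for HOXC5, HOXA2, HOXA6, HOXD4, HOXD10 and HOXD11 applies to this comparison of paralogues as well. In group 11, HOXA11 and HOXC11 were higher in the fibroblasts and HOXD11 was at 0 there. In group 10, HOXC10 was higher, HOXA10 was lower by a log2 difference of -0.63 ± 0.14, and HOXD10 was at 0. In group 9, HOXA9, HOXB9 and HOXD9 were lower, with log2 differences of -2.70 ± 0.17, -4.76 ± 0.26 and -5.04 ± 0.35, and HOXC9 missed the threshold. In group 8, HOXB8 and HOXD8 were lower by close amounts, -3.25 ± 0.19 and -3.22 ± 0.13, and HOXC8 was higher. So in group 8 the HOXC gene was higher in the fibroblasts while the HOXD gene with the same number was lower. The same directions in groups 10 and 11 rest on HOXD10 and HOXD11, which carry the filter limit, and are no support for that contrast.

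The balance between clusters differed between the cell types. Each gene's level was divided by the median length of its protein-coding transcripts in GENCODE v29 and the share of each cluster in the sum over the 32 genes was taken. HOXC made up 57.9% ± 0.340 (SD, n = 3) of the HOX level per kb in the fibroblasts. It made up 8.08% ± 0.878 in the silk monocultures and 10.8% ± 0.257 in the LN/PC monocultures. HOXD made up 3.32% ± 0.253 in the fibroblasts against 20.3% ± 1.55 and 19.5% ± 0.707. HOXB made up 25.3% ± 1.77 against 49.9% ± 1.75 and 45.2% ± 2.64, and HOXA 13.5% ± 1.38 against 21.7% ± 2.15 and 24.6% ± 2.33. These shares are given without a test. Undivided by length, the HOXC share was 52.7% in the fibroblasts against 6.68% and 8.94%.

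**Figure D3:**
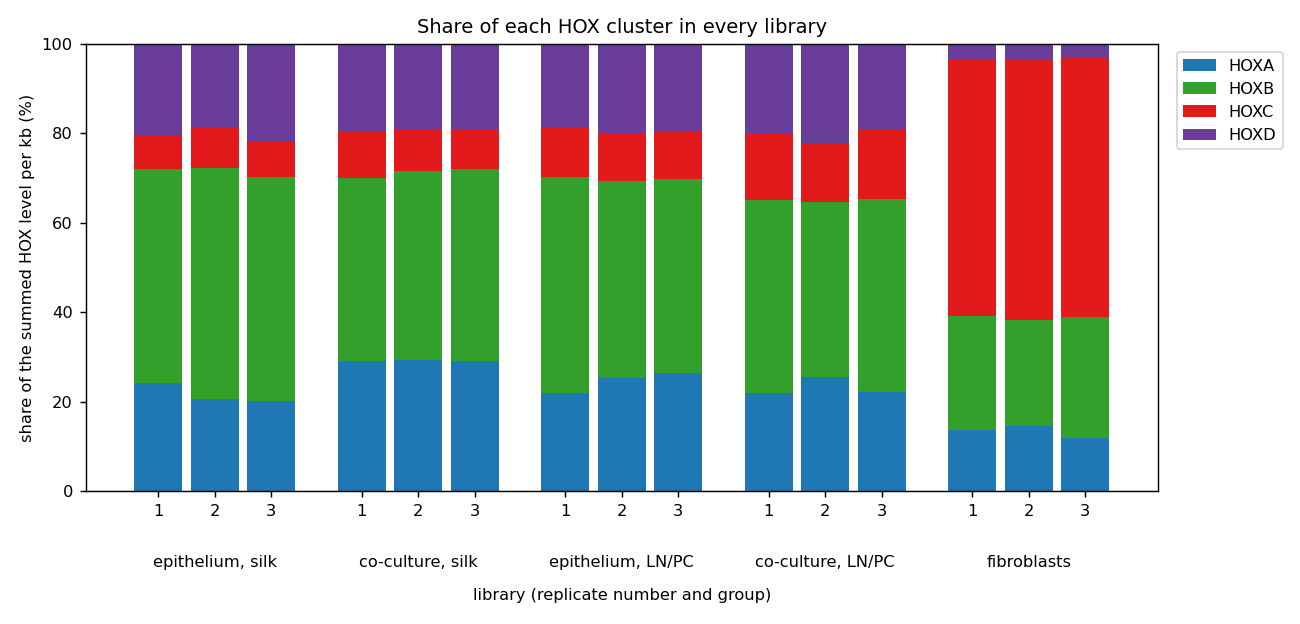
Share of the HOXA, HOXB, HOXC and HOXD clusters in the summed HOX level per kb (y axis, %) in each of the 15 libraries (x axis, replicate numbers 1 to 3 under each group). The HOXC part fills 57.5% or more of each fibroblast bar and at most 15.8% of any epithelial or co-culture bar, with the LN/PC co-cultures the highest of these.

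Counts of neighbours in a cluster are not fully separate. In GENCODE v29, 31 of the 32 members overlap another gene, 22 of them another member on the same strand and 23 an antisense gene. HOXA2, one of the genes at 0 in fibroblasts, is the member with no overlap. The library kit keeps strand, but how reads shared by overlapping transcripts were split is not given in the sources used here. Values of overlapping pairs such as HOXC4, HOXC5 and HOXC6, or HOXD10 and HOXD11, are uncertain to that extent.

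Noncoding RNAs of the clusters were read as a second view of the same regions. Of 19 listed, 14 were in the table and 12 were tested. The filter limit given for members holds here and for the lists below. A gene at or near 0 in either cell type passed the filter through the other alone. Calls of such genes are no support for a pattern of their list. In the fibroblasts 6 were lower and 2 higher, against 30.3% and 28% of all genes. Their median log2 difference was -1.27, against -0.02 over all genes. HOXA-AS2, which overlaps HOXA3 and HOXA4 on the opposite strand, averaged 279 ± 53.2 on silk and 373 ± 106 on LN/PC against 1.43 ± 2.11 in the fibroblasts (SD, n = 3), a log2 difference of -7.38 ± 0.44 (SE; adjusted p = 4.63e-08). HAGLR, an RNA of the HOXD cluster, averaged 451 ± 59.1 and 929 ± 239.7 against 34 ± 20.2, a log2 difference of -4.44 ± 0.39. HOXA-AS3 was at 0 in all fibroblast libraries, and HAGLROS, another HOXD cluster RNA, differed by -3.37 ± 0.32. These 4 RNAs were lower in the fibroblasts, as were the coding genes around them. HOXA-AS2, HOXA-AS3 and HAGLROS were at or near 0 there and passed the filter through epithelial libraries alone. HOXB-AS1 and HOXB-AS3 did not follow the HOXB genes, all of which were lower. Their log2 differences were 0.17 ± 0.39 and 0.16 ± 0.33 (SE; limma adjusted p = 0.728 and 0.697). HOTAIR, transcribed antisense next to HOXC11, was higher in the fibroblasts, at 54.7 ± 12.5 against 4.56 ± 1.45 on silk and 12.4 ± 1.09 on LN/PC, a log2 difference of 2.69 ± 0.28 (SE; adjusted p = 5.86e-06). HOXD-AS2 was also higher, by 0.98 ± 0.35 (SE; adjusted p = 0.0323), but lost its call without fibroblast library 2, with an adjusted p of 0.195. HOXD3, HOXD8 and HOXD9, which it overlaps on the opposite strand, were lower.

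The partners of HOX proteins differed by family. PBX, MEIS and PKNOX proteins are homeodomain cofactors that bind DNA together with HOX proteins. Of 9 measured, 4 were higher and 3 lower in the fibroblasts, against 28% and 30.3% of all genes. Their median log2 difference was 0.13, against -0.02 over all genes. All 3 MEIS genes were higher. MEIS3 averaged 271 ± 38 against 6.58 ± 3.40 and 12.2 ± 7.76, MEIS2 456 ± 11.9 against 51.7 ± 15.4 and 125 ± 57.1, and MEIS1 234 ± 38.8 against 53.7 ± 18.4 and 73.1 ± 9.62 on silk and LN/PC. Their log2 differences were 4.93 ± 0.46, 2.56 ± 0.28 and 1.91 ± 0.25 (SE). Among PBX genes, PBX4 was lower at -1.43 ± 0.47, while PBX2 and PBX3 missed the threshold. PBXIP1, which binds PBX proteins, and PKNOX1 were lower at -0.77 ± 0.17 and -0.40 ± 0.15. The calls of PBX4 and PKNOX1 were lost against 1 of the epithelial groups alone.

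Polycomb complexes keep HOX clusters silent and MLL complexes keep them active. Of 24 such genes, 13 were lower and 3 higher in the fibroblasts, against 30.3% and 28% of all genes. Their median log2 difference was -0.47, against -0.02 over all genes. CBX2, a Polycomb reader, differed by -2.62 ± 0.30 (SE; adjusted p = 1.67e-05). KDM6B, which removes the Polycomb mark, differed by -1.40 ± 0.21, PHC1 by -1.23 ± 0.15 and EZH2, which writes the mark, by -1.22 ± 0.23. BMI1, a Polycomb subunit, was higher by 0.87 ± 0.15 (SE; adjusted p = 0.000372). KMT2A, the MLL methyltransferase, was lower at -0.71 ± 0.17, so regulators of both kinds of action were among those that were lower. The other higher genes were ASH2L and EZH1, whose calls were lost under some alternatives.

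Retinoic acid is a known inducer of HOX genes, and 13 of 22 listed genes of its pathway were measured. In the fibroblasts 5 were higher and 6 lower, against 28% and 30.3% of all genes. The enzymes that make retinoic acid were split between the lines. ALDH1A1 averaged 2069 ± 364 and 1968 ± 156 in the epithelium against 4.83 ± 4.19 in the fibroblasts, and ALDH1A2 365 ± 27.9 and 513 ± 63.6 against 9.97 ± 9.50. ALDH1A3 averaged 0.419 and 0.623 against 564 ± 88.4, and CRABP2, a retinoic acid carrier, 36.3 ± 12.8 and 15 ± 0.966 against 2434 ± 136. The log2 differences were -8.94 ± 0.55, -6.12 ± 0.72, 8.58 ± 0.33 and 6.67 ± 0.22 in that order. The other genes that were higher were GDF11, RARG and RXRA, and those that were lower were RARB, STRA6, DHRS3 and RDH10.

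Other transcription factors of position and lineage differed between the cell types as well. Of 9 measured renal lineage factors, 7 were lower and 2 higher in the fibroblasts, against 30.3% and 28% of all genes. PAX2 and LHX1 were at 0 in all fibroblast libraries, and PAX8 averaged 0.340 there against 4658 ± 878 and 3803 ± 883 in the epithelium. OSR1, a factor of the early kidney field that is also known in connective tissue, was higher, at 664 ± 58.8 against 3.39 ± 1.39 and 8.58 ± 2.09. The other higher factor was EMX2, at 0.59 ± 0.13 (SE). Of 18 measured positional factors of skin fibroblasts outside the HOX clusters, 14 were higher and 3 lower, against 28% and 30.3% of all genes. PRRX1 and MKX were at 0 in all epithelial monoculture libraries and averaged 1769 ± 150.5 and 798 ± 74.9 in the fibroblasts. Like PAX2, LHX1 and PAX8, they passed the filter through a single cell type, so their calls are no support for these counts. TWIST2 and PRRX2 averaged 986 ± 103 and 373 ± 38.8, with log2 differences of 8.19 ± 0.36 and 7.94 ± 0.41. The lower factors were MSX2, SIM1 and PITX1, of which SIM1 was the most abundant in the epithelium, at 724 ± 209.8 and 623 ± 132.

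Of 11 measured signalling genes linked to HOX function, 6 were higher and 4 lower in the fibroblasts, against 28% and 30.3% of all genes. GDNF, the ligand through which kidney mesenchyme induces the ureteric bud, was at 0 in all epithelial monocultures and averaged 116 ± 34.9 in the fibroblasts. NCAM1 and GLI3, a cell adhesion molecule and a mediator of hedgehog signalling, differed by 6.79 ± 0.84 and 5.85 ± 0.29 (SE). CDH6 and SHH were at 0 in all fibroblast libraries, and TGFB2 and BMP4 were the other genes that were lower. The filter limit applies to GDNF, CDH6 and SHH.

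Between membranes, the HOX genes of epithelial monocultures differed little. In a fit of the 12 libraries of the 4 epithelial groups, 31 members were tested, since HOXC5 reached 10 normalized counts in 2 of 12 libraries. On silk against LN/PC, 1 member was higher and 1 lower, and over all genes 5.88% were higher and 5.79% lower. The median log2 difference was 0.01 over the members and 0.03 over all genes. HOXB5 stood at 624, 536 and 387 on silk and 251, 448 and 213 on LN/PC, with overlap between the groups and a log2 difference of 0.81 ± 0.25 (SE; adjusted p = 0.044). HOXC10 stood at 383, 512 and 388 on silk and 543, 838 and 638 on LN/PC, without overlap, a log2 difference of -0.64 ± 0.18 (SE; adjusted p = 0.0341). HOXC10, one of the genes that were higher in fibroblasts, was thus higher on LN/PC in cultures without fibroblasts. Among all genes, 12.3% were lower on silk without overlap and 14.2% higher without overlap.

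These counts turned on library 2 of the LN/PC monocultures. Without it, 6 members were higher on silk and none lower: HOXB5, HOXB6, HOXB9, HOXD4, HOXD9 and HOXD10, led by HOXB5 at 1.12 ± 0.21 and HOXD4 at 1.04 ± 0.27 (log2 difference ± SE). In that fit 10.8% of all genes were higher and 11.5% lower, against the 5.88% and 5.79% with all libraries. HOXD4 stood at 428, 282 and 294 on silk and 171, 318 and 147 on LN/PC, where the middle value is library 2. HOXB5 lost its call without library 3 of the LN/PC monocultures (adjusted p = 0.195), and HOXC10 without library 1 of the silk monocultures (adjusted p = 0.115). With library scaling by the upper quartile, or by genes restricted to epithelium, HOXB5 alone was called, and the medians of all genes became 0.10 and 0.11. The mitochondrial share of the counts was 5.16% ± 1.25 on silk and 2.48% ± 1.19 on LN/PC (SD, n = 3), and its part in these differences was not tested.

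In co-cultures, several HOX genes of the A, B and D clusters were higher on silk than on LN/PC. At the same threshold, 6 of 31 members were higher and none lower, while over all genes 18.5% were higher and 17.6% lower, so the share of members called higher was close to that of all genes. The raw p was under 0.05 for 12 members higher and 2 lower. The share of all genes at that raw p was not taken, here or below, so such counts cannot be set against all genes. The median log2 difference was 0.38 over the members and 0.03 over all genes. HOXA9 stood at 1041, 1113 and 1013 on silk and 574, 691 and 645 on LN/PC, a log2 difference of 0.73 ± 0.17 (SE; adjusted p = 0.00336). HOXB9 stood at 504, 522 and 529 and 248, 253 and 325, a log2 difference of 0.92 ± 0.25 (SE; adjusted p = 0.0104). These 2 genes kept their call under every alternative run, and their groups did not overlap.

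The other 4 called genes also had no overlap between the groups. Among all genes, 27.5% were higher on silk without overlap and 26.2% lower without overlap. HOXA6 stood at 79.7, 106 and 106 on silk and 21.7, 51 and 54.5 on LN/PC, a log2 difference of 1.27 ± 0.35 (SE; adjusted p = 0.0101). HOXB5 stood at 359, 394 and 335 and 207, 189 and 254, a log2 difference of 0.75 ± 0.25 (SE; adjusted p = 0.0267). Their calls were lost under some alternatives, with adjusted p up to 0.0534 and 0.0885. HOXD1 stood at 142, 156 and 161 and 58.8, 92.3 and 76.9, a log2 difference of 1.02 ± 0.30 (SE; adjusted p = 0.0157). HOXD4 stood at 209, 243 and 230.1 and 74.3, 117 and 149.6, a log2 difference of 1.05 ± 0.29 (SE; adjusted p = 0.0112). The calls of HOXD1 and HOXD4 reached adjusted p of 0.0657 and 0.0621 without library 1 of the LN/PC co-cultures, which was the lowest library of its group for 22 of the 32 members. Without it 2 members, HOXA9 and HOXB9, were called, and 13.7% of all genes were higher and 10.4% lower.

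The direction followed the cluster. All 10 HOXA and all 8 HOXB genes had positive log2 differences, silk minus LN/PC, and 6 of 7 HOXD genes did. All 6 tested HOXC genes had negative ones, none of them called, with a median of -0.34. HOXC8, for example, stood at 44.8, 38 and 41.1 on silk and 93.9, 50.6 and 74.4 on LN/PC, a log2 difference of -0.77 ± 0.36 (SE; adjusted p = 0.104). Scaling by 72 genes restricted to epithelium moved the median of all genes to -0.12 and that of the members to 0.23. With it 12.4% of all genes were higher and 21.5% lower. It left 5 members called higher and HOXD8 called lower, at -0.48 ± 0.16, and 12 of 31 members with a negative difference in place of 7.

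Fibroblast RNA moved with this comparison. The median over 112 fibroblast genes put its share at 13.9%, 9.81% and 15.2% in the LN/PC co-cultures and at 0.0239%, 0% and 0.113% in the silk co-cultures. Summed fibroblast markers ran from 1.0316e+05 to 1.8508e+05 in the LN/PC co-cultures and from 1452 to 1804.9 in the silk co-cultures, where POSTN was at 0. In bulk RNA, fewer cells of a type and less RNA per cell cannot be told apart. No HOX gene was restricted to fibroblasts, since none was at least 20 times higher there than in each epithelial monoculture. HOXC8, chosen after its values were seen as the gene with the largest fold in fibroblasts, had an excess over LN/PC monocultures of 13.5%, 2.11% and 8.37% of its fibroblast excess in the 3 LN/PC co-cultures. In the silk co-cultures HOXC8 was below the monocultures, at -3.55%, -5.41% and -4.55%. The mitochondrial share of the counts was 5.97% ± 0.501 in the silk co-cultures and 2.37% ± 0.584 in the LN/PC co-cultures (SD, n = 3). The part of fibroblast RNA and of the mitochondrial share in the differences between co-cultures was not tested.

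**Figure D4:**
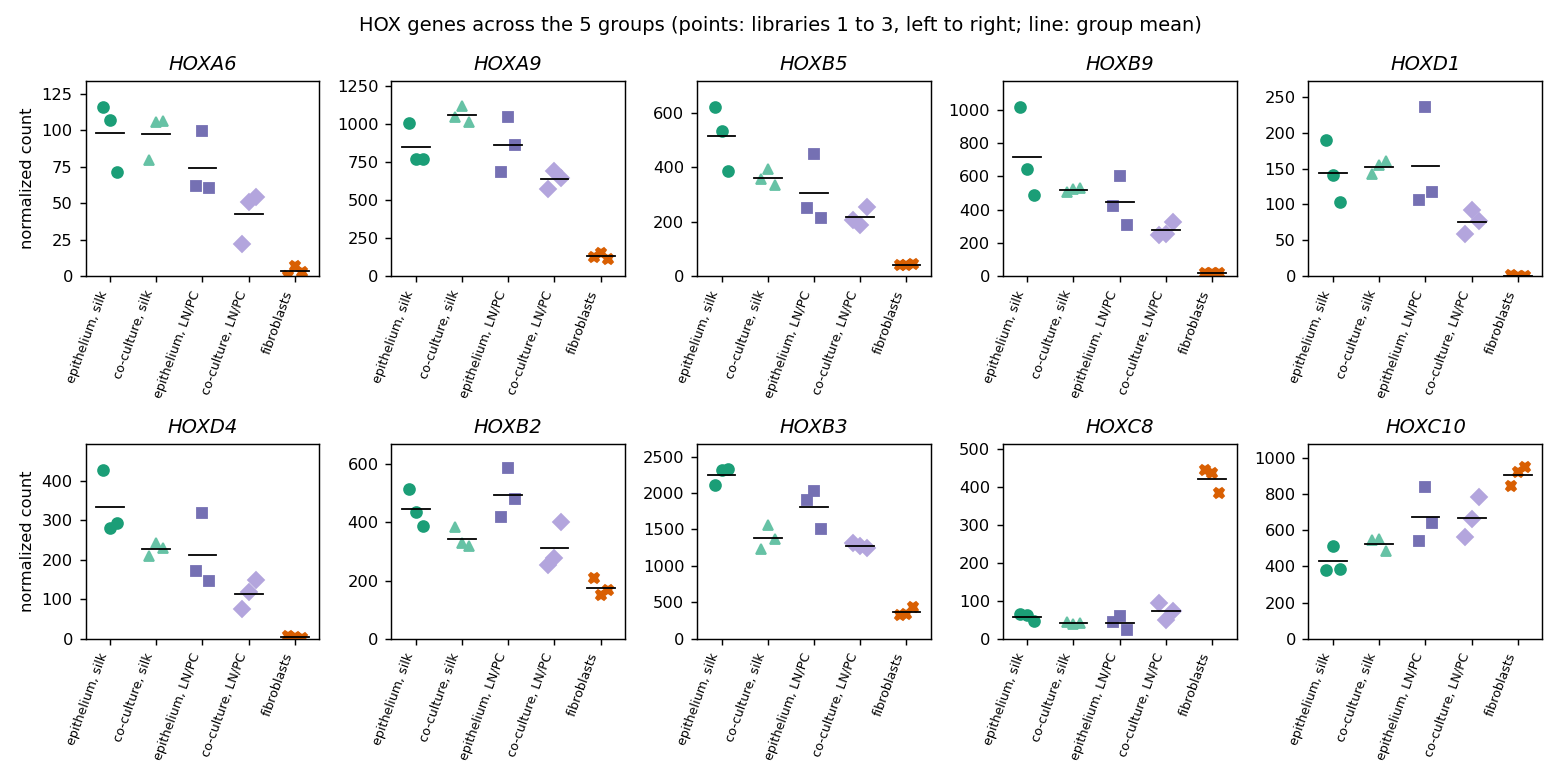
Normalized counts (y axis, from 0) of the 8 HOX genes called between culture groups other than HOXC10, with HOXC8 and HOXC10 last, in the 5 groups (x axis); points are libraries 1 to 3 from left to right and lines are group means. HOXA9 and HOXB9 are higher in all 3 silk co-cultures than in all 3 LN/PC co-cultures, HOXB3 is lower in both co-cultures than in the monocultures of its membrane, and library 2 is the top point of the LN/PC monocultures in the panels shown.

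Adding fibroblasts changed few HOX genes on either membrane, and HOXB3 was lower on both, with calls that were lost under some alternatives. In silk co-cultures against silk monocultures, 1 of 31 members was lower and none higher by limma, against 0.866% lower and 2.91% higher over all genes. HOXB3 stood at 1230.2, 1564 and 1374 in co-culture and 2107, 2319 and 2333 in monoculture, without overlap, a log2 difference of -0.70 ± 0.15 (SE; adjusted p = 0.0102). Among all genes, 12.4% were lower in co-culture without overlap and 14.7% higher without overlap. With scaling by epithelium-restricted genes its adjusted p was 0.101 and no member was called, with a median of 0.19 over all genes. Raw p was under 0.05 for 3 members lower, HOXB3, HOXB6 and HOXD8, and for none higher. HOXB6 stood at 846, 981 and 878 in co-culture and 1403, 1567 and 1091 in monoculture, and its log2 difference of -0.57 ± 0.20 (SE; adjusted p = 0.125) missed the threshold.

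In LN/PC co-cultures against LN/PC monocultures, 2 of 31 members were lower and none higher, against 4.72% lower and 7.8% higher over all genes. HOXB2 stood at 255, 278 and 402 in co-culture and 418, 588 and 482 in monoculture, a log2 difference of -0.68 ± 0.20 (SE; adjusted p = 0.0294). HOXB3 stood at 1313, 1269 and 1249 and 1910.5, 2032 and 1499.9, a log2 difference of -0.49 ± 0.15 (SE; adjusted p = 0.0346). The groups did not overlap for either gene. Among all genes, 12.1% were lower in co-culture without overlap and 13.8% higher without overlap. The log2 difference was negative for 26 of 31 members, with a median of -0.36 against -0.04 over all genes, and 4 of the 5 positive ones were HOXC genes. Fibroblast RNA made up 13.0% ± 2.80 (SD, n = 3) of these co-cultures, and its part in these differences was not tested.

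With libraries scaled by the epithelium-restricted genes, the median of all genes was 0.38 and that of the members 0.07. HOXB2 and HOXB3 were then not called, with adjusted p of 0.369 and 0.808, and HOXC8 was called higher at 1.25 ± 0.37 (adjusted p = 0.0211). With that scaling 13 members were negative and 18 positive. A scaling shifts all genes of a library alike, so these signs follow the scaling. With it 25.2% of all genes were higher and 0.872% lower. Without library 2 of the LN/PC monocultures HOXC8 was likewise the only call, at 1.14 ± 0.37, in a fit in which 8.02% of all genes were higher and 5.93% lower. Without library 3 of that group 5 members were lower, namely HOXB2, HOXB3, HOXB9, HOXD1 and HOXD4, and 8.51% of all genes were higher and 5.22% lower. The summed share of the HOXC cluster per kb was 14.7% ± 1.34 in the LN/PC co-cultures against 10.8% ± 0.257 in the monocultures, and 9.38% ± 0.875 in the silk co-cultures against 8.08% ± 0.878.

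Whether the difference between co-culture and monoculture itself differed with the membrane was tested as an interaction. No member was called by limma, while 3.15% of all genes were higher and 4.59% lower. At a raw p under 0.05, HOXA9, HOXA10 and HOXD1 were positive and HOXC8 negative. HOXA9 came closest, at 0.75 ± 0.24 (SE; adjusted p = 0.0668): its co-culture libraries were above the monoculture ones on silk and its mean was lower in co-culture than in monoculture on LN/PC. HOXA9 was called without library 1 of the silk monocultures (0.88 ± 0.24) or without library 1 of the LN/PC monocultures (0.90 ± 0.23). HOXC8 was called without library 2 of the LN/PC monocultures (-1.60 ± 0.49).

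Some of the lists around the HOX genes differed between LN/PC co-cultures and LN/PC monocultures, where fibroblast RNA also differed. In this comparison 7.8% of all genes were higher and 4.72% lower. None of the 12 noncoding RNAs of the clusters and none of the 24 Polycomb and MLL genes was called by limma. At a raw p under 0.05 the noncoding RNAs had 1 higher and 1 lower, and the Polycomb and MLL genes 0 higher and 2 lower. Of the 9 cofactors, 1 was higher and 1 lower. Of 9 tested renal lineage factors, 1 was higher and 3 lower. PAX8 was among the lower ones, at -0.99 ± 0.18 (SE; limma adjusted p = 0.00112). Of 10 tested signalling genes, 4 were higher and 2 lower. Of 16 tested positional factors of skin fibroblasts, 9 were higher and none lower. PRRX1 averaged 488 ± 165 in the LN/PC co-cultures and 2.27 ± 2.04 in the silk co-cultures (SD, n = 3), with 0 in all epithelial monocultures. TWIST2 averaged 254 ± 65.2 in the LN/PC co-cultures against 2.10 ± 1.54 in the monocultures. MEIS3 rose from 12.2 ± 7.76 to 169 ± 76.8, and its interaction with the membrane was -3.26 ± 0.77 (SE; adjusted p = 0.014). Without library 1 of the LN/PC co-cultures the adjusted p of that interaction was 0.0726. GDNF averaged 35.3 ± 13.2 in the LN/PC co-cultures and was at 0 in all silk co-cultures. PRRX1 and GDNF passed the filter of this fit through the LN/PC co-cultures alone.

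Of the 13 retinoic acid genes, 5 had an interaction past the threshold, 3 positive and 2 negative. Over all genes, 3.15% had a positive one and 4.59% a negative one. DHRS3, which reduces retinaldehyde, averaged 280.2 ± 49.1 in silk monocultures and 322 ± 19.9 in co-cultures on silk, against 931 ± 77.5 alone and 303 ± 37.3 with fibroblasts on LN/PC. Its interaction was 1.83 ± 0.23 (SE; adjusted p = 9.15e-05), so DHRS3 was highest in LN/PC monocultures. RDH10, which makes retinaldehyde, and RARA, a retinoic acid receptor, had interactions of 1.42 ± 0.27 and 0.84 ± 0.24, and the call of RARA was lost under some alternatives. CRABP2 averaged 185 ± 7.80 against 36.3 ± 12.8 for co-culture against monoculture on silk, and 728 ± 149.6 against 15 ± 0.966 on LN/PC. The interactions of CRABP2 and ALDH1A3 were negative, at -3.12 ± 0.37 and -5.58 ± 0.82. Both genes were higher in the fibroblasts. Fibroblast RNA averaged 13.0% in the LN/PC co-cultures and 0.0457% in the silk co-cultures, and its part in these interactions was not tested.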

How the data were processed

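RNA was measured in 15 libraries of 5 groups. Per the submitters' processing notes, Salmon 1.10.3 and DESeq2 were used. The build, annotation and settings are not named in the labels or headers. The authors deposited log2 values in which every library shares a floor of 5.53664, as after a variance-stabilizing transformation. This was inverted, with the floor as its only constant, to give normalized counts, and values at the floor became 0. As a check, the median ratio to the per-gene mean over 13121 genes was 1.01175 in all libraries (spread 6.27e-09). With plain powers of 2 it varied from 0.994 to 1.002. A read was worth about 0.744 to 1.31 normalized counts. Only 31.2% to 53% of low values came within 0.1 of whole reads, so count models were not used. Floors of 3 reads per library and intervals cover counting error only.

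Comparisons used limma-trend (version 3.58.1 under R 4.3.3) on log2(value + 1), which understates changes of low genes. Benjamini-Hochberg adjustment ran over all tested genes, and a call was an adjusted p under 0.05. Fibroblasts were compared with the mean of both epithelial monoculture groups in a fit of 9 libraries, and the epithelial groups in a fit of 12. The code was tested on simulated data. Fibroblast RNA was the median excess of 112 genes whose fibroblast mean was 1000 or more and 100 times that of each epithelial monoculture. Epithelium-restricted scaling used 72 genes. Alternatives changed the filter, pseudocount, scaling, libraries and replicate block.

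Library values are given for called members whose higher group averaged 100 or more. Other members are named for completeness. Some genes are not reported here. Up to 4 called genes per list are named by size of change. AQP1, KMT2A, LHX1, SIM1, HOTAIR and further list genes named to complete a count were chosen after their values were seen. The members and lists were chosen with earlier results of these data known.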

Additional observations from a re-analysis of the deposited data

How the results depend on the processing

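Of 30 members called between fibroblasts and epithelium, 28 kept their call under every alternative run, and HOXC10 was among those that did not. No called member changed direction under any alternative run, but the median over the members did with epithelium-restricted scaling, from -0.36 to 0.07 for LN/PC co-cultures against monocultures, from -0.09 to 0.09 for silk co-cultures against monocultures and from 0.20 to -0.03 for the interaction. Counts of members between culture groups were less stable, and the cause was not tested. For silk against LN/PC monocultures, the count higher was 0 with the replicate block and 0 with the 6 compared libraries alone. It was 0 to 6 when 1 library was left out. Over all genes, 4.68%, 2.85% and 2.67% to 10.8% were higher in these settings. The count lower was 0 with upper-quartile scaling, with epithelium-restricted scaling and with the 6 libraries alone. It was 0 to 1 when 1 library was left out. Over all genes, 4.6%, 3.11%, 2.64% and 2.16% to 11.5% were lower in these settings. For silk against LN/PC co-cultures, 12 were higher with the 6 libraries alone, where 21.8% of all genes were higher and 21.7% lower, and 2 to 7 when 1 library was left out, where 12.5% to 17.7% of all genes were higher, and 1 was lower with epithelium-restricted scaling. For silk co-cultures against silk monocultures, 0 were lower with epithelium-restricted scaling and 2 with the 6 libraries alone. When 1 library was left out, 0 to 1 were lower. Over all genes, 0.38%, 2.84% and 0.201% to 1.09% were lower in these settings. For LN/PC co-cultures against LN/PC monocultures, 1 was higher with epithelium-restricted scaling and 0 to 1 when 1 library was left out. Over all genes, 25.2% and 3.53% to 8.51% were higher in these settings. The count lower was 0 with the replicate block, with epithelium-restricted scaling and with the 6 libraries alone. It was 0 to 5 when 1 library was left out. Over all genes, 3.6%, 0.872%, 1.88% and 1.79% to 5.93% were lower in these settings. The interaction gave 0 to 1 in either direction when 1 library was left out. Over all genes, 1.57% to 4.47% were then called positive and 1.71% to 5.4% negative.

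Samples with the same replicate number did not deviate together: the median correlation of their deviations was -0.042 over 30 pairs, 3 of them over 0.1, against 0.004 over 60 pairs with different numbers. The numbers were therefore not used as pairs, and the replicate block changed the 2 counts given above and raised the count of members higher on silk in co-cultures from 6 to 7, adding HOXA3 (adjusted p = 0.0461). All genes called between silk and LN/PC monocultures numbered 1685, against 754 with the 6 libraries alone and 3208 without library 2 of the LN/PC monocultures. The planned comparison of co-culture HOX levels with fibroblasts gave no value because no member met its rule, so HOXC8 was used, an alternative chosen after seeing the data. So were the HOXC shares undivided by length and by the longest transcript (54.7% in fibroblasts, against 7.11% on silk and 9.57% on LN/PC). About 1 read in 1 library was all that was seen of HOXD1 in fibroblasts, and depth limits the bounds for HOXA2, HOXD10 and HOXD11.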
